A study of Mus musculus with 7 samples.

Results

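The baseline transcriptome of WT granulosa cells was described from 4 of the 7 RNA-seq libraries of a study of Ezh2 deletion in the mouse ovary, those titled WT1 to WT4. The genes described were those with a mean level of at least 1 FPKM over these 4 libraries, 13722 of the 50095 genes in the table (27.4%). FPKM is the number of sequenced fragments of a gene scaled by the length of the transcript and by the size of the library, so that genes of different length can be set side by side. The cells carried the genotype Ezh2flox/+; Cyp19-Cre. That is, 1 Ezh2 allele was floxed, and Cre recombinase was expressed from the promoter of the aromatase gene Cyp19, which is active in granulosa cells. Ezh2 encodes the histone H3K27 methyltransferase of Polycomb repressive complex 2 (PRC2). Female mice of 3 weeks had been given 5 IU of PMSG, which acts like FSH and makes follicles grow. A dose of 5 IU of hCG, which acts like LH and triggers ovulation, followed 48 h after it. The other 3 libraries of the series came from a knockout group and were not used. Both groups carried the Cre transgene, so the floxed allele of the WT cells can be recombined as well, which leaves 1 intact allele. Neither the interval between hCG and collection nor the number of animals behind a library is given by the labels, so the spread between libraries may be biological, technical or both. WT4 is WT by its title and its genotype but carries the treatment text of the knockout libraries. Library values are given for most genes named, and every mean and SD includes WT4 unless a library is said to be left out.

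Granulosa cells are the somatic cells that line the follicle and surround the oocyte. Under FSH they divide, make inhibins and convert androgens to oestradiol through aromatase. After the LH surge, or hCG in its place, the cells induce EGF-like ligands, prostaglandin synthesis and the progesterone receptor, and those around the oocyte lay down a hyaluronan matrix. They then leave the cell cycle, lose aromatase and turn to progesterone synthesis as they luteinize.

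The label was first set against marker genes of granulosa cells. All 6 markers were among the 13722 genes. Inha, the α subunit of the inhibins, stood at 2812, 3742, 3232 and 3104 FPKM in WT1, WT2, WT3 and WT4, the order in which the 4 values of a gene are given from here on. It had the highest mean of all nuclear protein-coding genes, 3222 ± 389 FPKM (SD, n = 4, as for all such values), and rank 12 overall. Fst, the activin-binding protein follistatin, stood at 245, 288, 275 and 291 FPKM, and Foxl2, the transcription factor that maintains granulosa identity, at 18.3, 20.5, 16.9 and 13.3 FPKM. The levels of Fst differed little between the libraries, whereas Foxl2 was at its lowest in WT4. Cyp11a1, the side-chain cleavage enzyme that starts steroid synthesis, stood at 213, 347, 337 and 383 FPKM, lowest in WT1. Star, which brings cholesterol to that enzyme, stood at 347, 199, 351 and 553 FPKM, lowest in WT2 and highest in WT4. Areg, an EGF-like ligand induced by LH, stood at 267, 233, 262 and 341 FPKM. Of 14 genes of the Sertoli lineage, the male counterpart of granulosa cells, 5 reached 1 FPKM, led by Nr5a1, which granulosa cells also express, and by Dhh and Aard, with 30.3, 16.4 and 12.2 FPKM. Of the genes that define that lineage, Sox9 averaged 0.447 FPKM, Dmrt1 0.0184 FPKM, and Sry was listed at 0 in all 4 libraries. The 8 Y-linked genes examined summed to between 0.00342 and 0.216 FPKM per library, and Xist, the noncoding RNA of the inactive X chromosome, averaged 47.1 ± 7.29 FPKM. The animals were female by the labels.

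**Figure D1:**
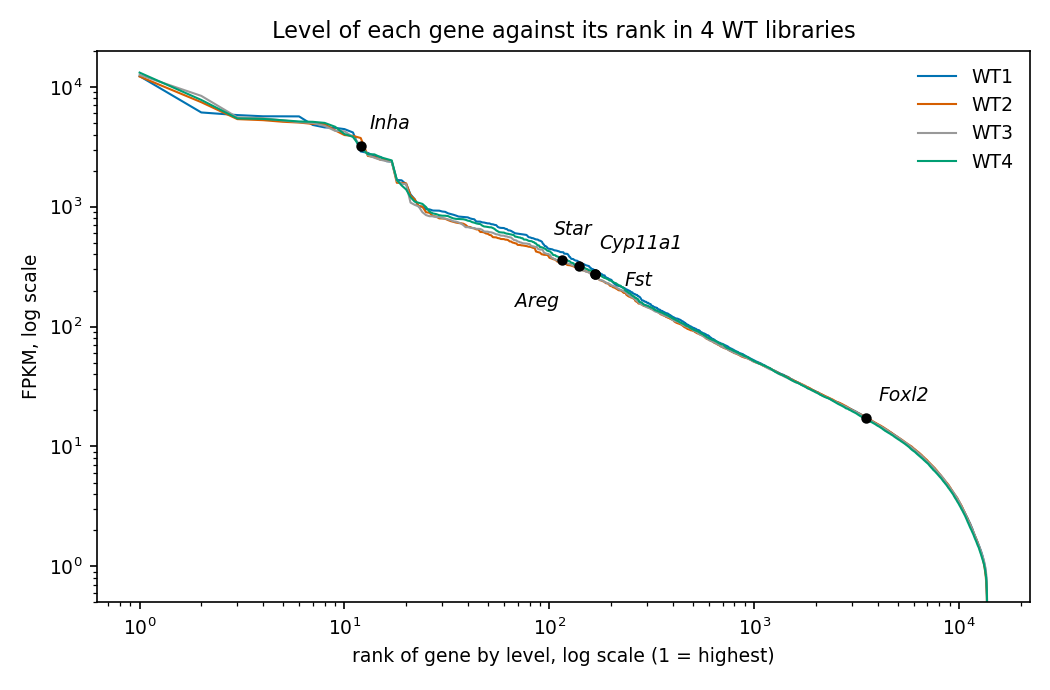
Level in FPKM (y axis, log scale) of each gene of at least 1 FPKM against its rank (x axis, log scale), with a line for each of the 4 WT libraries, sorted within that library. Points mark the mean level and the rank over all genes of the 6 granulosa markers, from Inha at rank 12 to Foxl2 at rank 3500. The 4 lines lie close together over the whole range.

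Expression was spread over 4 orders of magnitude, and a few genes made up much of the total. Of the 13722 genes, 7971 had a mean of 1 to 10 FPKM, 5275 of 10 to 100 FPKM, 453 of 100 to 1000 FPKM and 23 of at least 1000 FPKM. The median level was 7.75 FPKM. Atp8b2 and Ckap5, near the middle of the 10 to 100 FPKM class, both averaged 19.4 FPKM, and Psap, a lysosomal saposin precursor near the middle of the next class, averaged 187 FPKM. The 10 genes of highest mean held 15.8 ± 0.400% of the summed FPKM, the 100 highest 35.5 ± 0.457% and the 1000 highest 63.6 ± 0.985%. The steepest step lay at the top, where the genome of the mitochondrion supplied most of the genes. The number of genes at or above 1 FPKM was 13809, 13704, 13778 and 13604 in the 4 libraries, and 12597 genes reached 1 FPKM in every library. Just inside the limit of 1 FPKM lay Itgb8, a β integrin, at 0.736, 1.34, 0.948 and 0.975 FPKM, together with Cfap69 at 1.05, 0.770, 0.973 and 1.22 FPKM, and Insl3, given below. Just outside lay Mrc1 and Smad9, a mediator of BMP signals, with Smad9 at 1.05, 0.886, 1.17 and 0.890 FPKM, and the matrix gene Aspn at 0.852, 1.88, 0.755 and 0.505 FPKM. Genes at this level crossed the limit from library to library. Another 19416 genes of the table were listed at 0 in all 4 libraries.

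Mitochondrial transcripts were the most abundant class. The 13 protein genes of the mitochondrial genome ranged from 836 to 12547 FPKM in mean level, with a median of 3928 FPKM, against 7.75 FPKM over all genes of at least 1 FPKM. mt-Co1, the catalytic subunit of cytochrome c oxidase, stood at 12279, 12192, 12571 and 13147 FPKM, and mt-Cytb, of complex III, at 5680.3, 5378, 5483 and 5452 FPKM. These genes were also among the steadiest, with a CV (the SD as a percentage of the mean) of 3.44% for mt-Co1 and 2.34% for mt-Cytb. The exception among the 13 was mt-Atp8, a short gene that overlaps mt-Atp6, at 6114, 7447, 8406 and 7775 FPKM, which was lowest in WT1. All genes of the mitochondrial genome together held 14.7%, 15.4%, 15.8% and 15.6% of the summed FPKM. A cluster of 7 pseudogenes on chromosome 1 held a further 6.43 ± 0.110%. They lie side by side at chr1:24611535-24616197 (GRCm38), on the minus strand, are unprocessed pseudogenes in the annotation and resemble genes of the mitochondrial genome, and averaged 811 to 5250.2 FPKM each. Whether the counting split fragments between such copies and the mitochondrial genome is not given in the sources used here, so the levels of both are uncertain, as is that of mt-Nd6, which lies on the strand opposite to its neighbours.

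After the mitochondrial genes, the highest levels belonged to translation, protein folding and the granulosa programme itself. Eef1a1, the elongation factor that brings tRNAs to the ribosome, stood at 2890.4, 2449, 2559 and 2732 FPKM, and Tpt1, a growth-related protein, at 1266, 1001, 1082 and 1202 FPKM. Ctsl, the protease cathepsin L, averaged 1039 ± 44.5 FPKM, and Gja1, which encodes the gap junction protein connexin 43 that couples granulosa cells, 1003 ± 169 FPKM. Ctsl was the steadier, with a CV of 4.28%, against 16.9% for Gja1, which was highest in WT2. Hsd3b1, which makes progesterone from pregnenolone, stood at 619, 1154, 900.3 and 788 FPKM, and Serpine2, an inhibitor of plasminogen activators and thrombin, at 828, 900.0, 832 and 868 FPKM. Hsp90ab1, a cytosolic chaperone, and Ptma, a small nuclear protein, followed with 845 and 869 FPKM. The 79 genes of cytosolic ribosomal proteins all exceeded 20 FPKM, with a median of 406 FPKM, and held 10.2%, 8.54%, 8.66% and 9.11% of the summed FPKM. The share was highest in WT1, in which 66 of the 79 genes had their highest value, against 29.5% of all 13722 genes. Ribosomal protein genes have many processed pseudogenes, so their levels are uncertain where the counting split fragments. Rplp1 stood at 1154, 835, 774 and 835 FPKM and Rpl41 at 1002, 798, 796 and 841 FPKM, and both were highest in WT1.

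**Figure D2:**
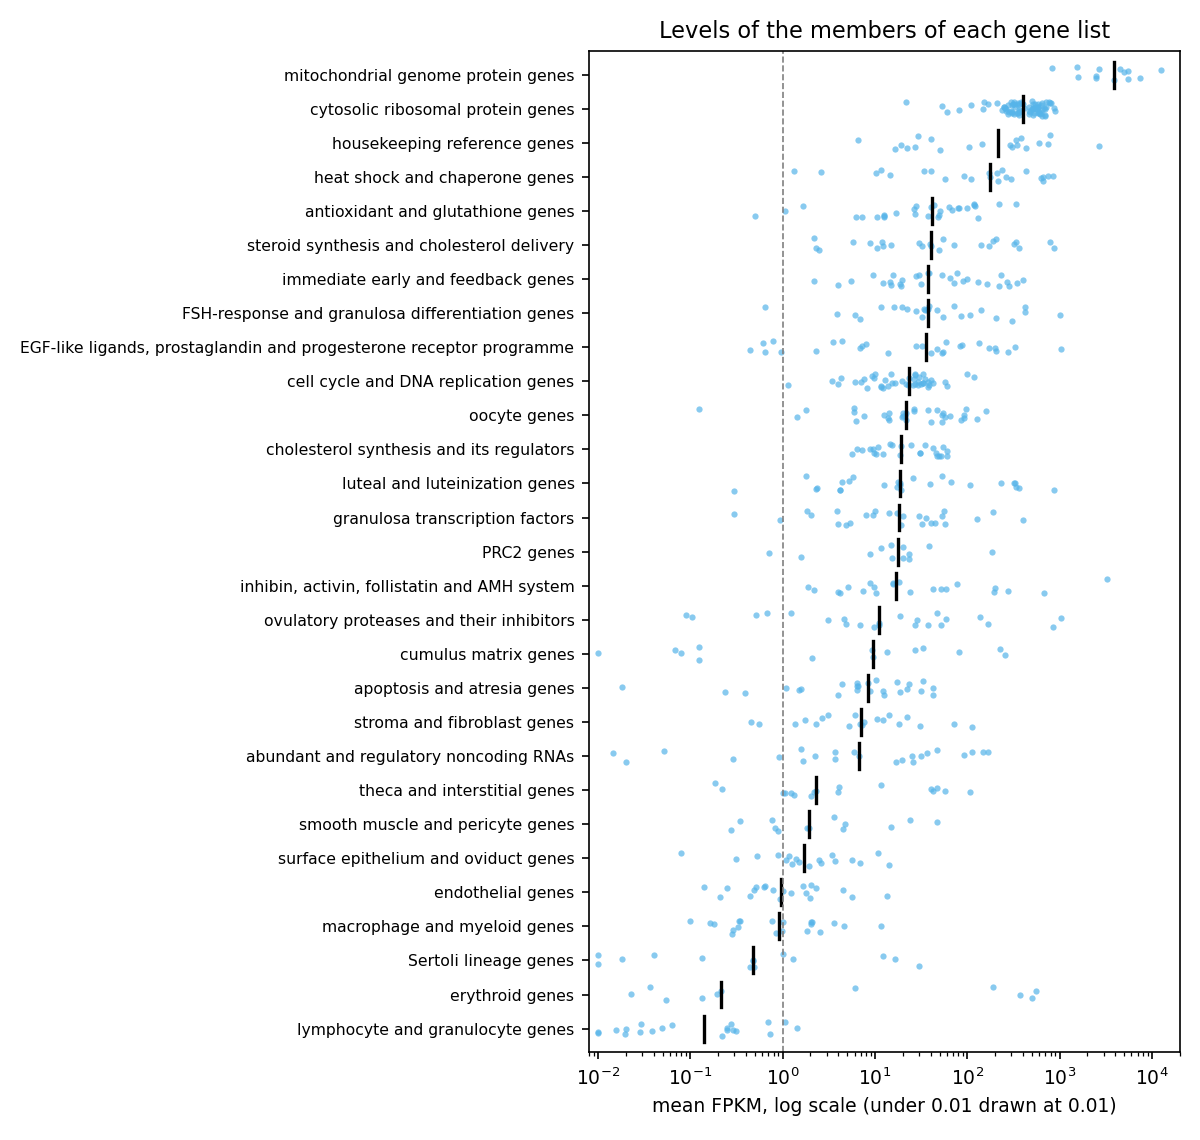
Mean FPKM over the 4 WT libraries (x axis, log scale) of each member of the gene lists (rows), with a black line at the list's median over all members in the table and a dashed line at 1 FPKM. Mitochondrial and ribosomal protein genes lie at the top, with medians of 3928 and 406 FPKM, and genes of lymphocytes and granulocytes at the bottom.

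Among granulosa transcription factors, 24 of 26 reached 1 FPKM, with a median of 19.7 FPKM. Nr5a2, a nuclear receptor needed for ovulation and luteinization, stood at 142, 200.4, 200.1 and 220.2 FPKM, and Esr2, the oestrogen receptor β, at 50.8, 58.1, 61.3 and 57.2 FPKM. Foxo1, which is abundant in granulosa cells of growing follicles, stood at 51.8, 60.7, 54.4 and 47.5 FPKM. These 3 genes kept within a narrow range, apart from the lower Nr5a2 of WT1. Cebpa, needed together with Cebpb for luteinization in mice, stood at 69.5, 34.9, 48.8 and 71.5 FPKM and was lowest in WT2. Nr5a1, the steroidogenic factor SF1, was the steadiest member at 29.8, 30.7, 30.2 and 30.5 FPKM, with a CV of 1.36%, against a median CV of 12.4% over all 13722 genes. Id3, an inhibitor of basic helix-loop-helix factors, averaged 127 ± 5.63 FPKM. Irx5 and Lhx9, with 0.939 and 0.294 FPKM, were the members under 1 FPKM.

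The genes of FSH response and granulosa differentiation were present at high level, and their order between libraries was uneven. Of the list, 25 of 26 reached 1 FPKM, with a median of 37.9 FPKM, and 14 of the 25 were highest in WT2, against 35.0% of all 13722 genes. Cyp19a1, the aromatase that makes oestradiol and whose promoter drives the Cre transgene, stood at 62.2, 229.9, 159.9 and 111 FPKM. Lhcgr, the receptor for LH and hCG, stood at 56.7, 148, 112 and 107 FPKM, and Hsd17b1, which makes oestradiol from oestrone, at 145, 280.3, 223 and 174 FPKM. In all 3 genes WT2 was the highest library and WT1 the lowest. Prkar2b, a regulatory subunit of protein kinase A induced by FSH, stood at 254, 462, 489 and 475 FPKM, with WT1 far below the other 3. Bex4 and Nap1l5 averaged 418 ± 50.5 FPKM and 307 ± 53.4 FPKM. Fshr, the FSH receptor, stood at 23.8, 35.7, 29.1 and 24.1 FPKM. It was chosen outside the rule for named genes, after its values were seen, as were the members under 1 FPKM that are named here and below. Nt5e, the ectonucleotidase CD73, was the member under 1 FPKM, at 0.642 FPKM.

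The 22 genes of the inhibin, activin, follistatin and AMH system all reached 1 FPKM. Inhibins pair the α subunit with a β subunit, while activins pair 2 β subunits. Inhba, the βA subunit, stood at 468, 738, 703 and 789.6 FPKM, and Inhbb, the βB subunit, at 81.6, 349, 216 and 141 FPKM. The α subunit was thus far above both β subunits in every library, and Inhbb spread widely, highest in WT2 and lowest in WT1. Its CV of 58.5% was the highest of the list. Amh, the anti-Müllerian hormone of small growing follicles, stood at 313, 172, 171 and 148 FPKM and was highest in WT1. Of the receptors, Tgfbr1 averaged 77.7 ± 17.3 FPKM and Bmpr2 58.4 ± 10.6 FPKM, and both were lowest in WT1.

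Genes of steroid synthesis and cholesterol delivery were measured at a median of 40.8 FPKM, and all 25 reached 1 FPKM. Fdx1, the ferredoxin that hands electrons to mitochondrial steroid hydroxylases, stood at 752, 646, 725 and 1056 FPKM, and Scarb1, the receptor for cholesterol from HDL, at 339.8, 302, 333 and 379.7 FPKM. Scarb1 was steady and Fdx1, like Star, was highest in WT4 and lowest in WT2. Cyp17a1, which makes androgens and is a defining gene of theca cells, the layer outside the granulosa, stood at 23.5, 71.4, 45.7 and 22.4 FPKM. Insl3, a peptide hormone of theca cells, stood at only 1.36, 1.24, 1.09 and 0.318 FPKM. All 25 genes of cholesterol synthesis reached 1 FPKM but none reached 100 FPKM. Fdps, which makes farnesyl pyrophosphate, stood at 52.7, 68.6, 62.6 and 56.3 FPKM. Scap, the sterol sensor that escorts the SREBP factors, stood at 45.03, 78.7, 63.04 and 51.4 FPKM. For 19 of these 25 genes WT2 was the highest library, against 35.0% of all 13722 genes.

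RNA of the ovulatory programme of EGF-like ligands, prostaglandin synthesis and progesterone receptor was measured in all 4 libraries. Of its 28 genes, 23 reached a mean of 1 FPKM, with a median of 53.1 FPKM. Areg, given above, was joined by Ereg (epiregulin) at 199.5, 138, 186 and 273 FPKM and Btc (betacellulin) at 85.1, 43.1, 82.4 and 136 FPKM. These ligands carry the LH signal from mural granulosa cells to the cumulus. Ptgs2, the inducible cyclooxygenase of prostaglandin synthesis, stood at 173, 46.9, 119 and 195 FPKM, and Pgr, the progesterone receptor, at 53.1, 26.04, 52.9 and 87.0 FPKM. Both were lowest in WT2 and highest in WT4, and the highest value was over 3 times the lowest. Sult1e1, which inactivates oestradiol by sulfation, stood at 198, 55.2, 163 and 266 FPKM. Rgs2, a regulator of G protein signalling, averaged 325 ± 42.5 FPKM and Cited2, a transcriptional coregulator, 204 ± 28.2 FPKM. The members under 1 FPKM were Zbtb16, Prkg2, Adcyap1r1, Ptgs1 and Ptger2, with 0.444 to 0.949 FPKM. For 18 of the 23 genes WT4 was the highest library, against 18.5% of all 13722 genes, and for 15 WT2 was the lowest, against 25%. This and the other lists were chosen with earlier results of these data known, so such counts may not be independent of the values. Without WT4, the library whose treatment label differed, Star averaged 299 FPKM and Areg 254 FPKM.

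The promoters of Areg, Ptgs2 and Pgr, which belong to this programme, are shown because these 3 genes ran WT4, WT1, WT3, WT2 from the highest library to the lowest. Those of Nts and Inhbb are shown because both had a CV over 50%, with WT2 lowest for Nts and highest for Inhbb. Each sequence runs from 250 bases before to 50 bases after the transcription start, from RefSeq on GRCm38.p6. Capitals mark exact matches, on either strand, to the TATA box letters TATAAA, the cyclic AMP response element TGACGTCA, which reads the same on both strands, or CCAAT. The windows are Areg at chr5:91139349-91139648, plus strand, Ptgs2 at chr1:150099781-150100080, plus strand, Pgr at chr9:8899583-8899882, plus strand, Nts at chr10:102490369-102490668, minus strand and Inhbb at chr1:119422199-119422498, minus strand.
Areg: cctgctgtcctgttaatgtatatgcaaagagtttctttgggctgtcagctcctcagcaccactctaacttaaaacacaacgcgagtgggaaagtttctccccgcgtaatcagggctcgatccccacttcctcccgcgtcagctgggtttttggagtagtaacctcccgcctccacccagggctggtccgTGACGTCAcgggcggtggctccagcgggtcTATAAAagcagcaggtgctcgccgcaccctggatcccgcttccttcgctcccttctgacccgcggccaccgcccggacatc
Ptgs2: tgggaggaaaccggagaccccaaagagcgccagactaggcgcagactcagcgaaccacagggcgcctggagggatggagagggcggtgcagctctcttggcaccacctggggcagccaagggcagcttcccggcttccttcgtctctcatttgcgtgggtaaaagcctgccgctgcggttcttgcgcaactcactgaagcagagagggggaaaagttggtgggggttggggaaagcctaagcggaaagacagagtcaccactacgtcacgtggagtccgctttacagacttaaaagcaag
Pgr: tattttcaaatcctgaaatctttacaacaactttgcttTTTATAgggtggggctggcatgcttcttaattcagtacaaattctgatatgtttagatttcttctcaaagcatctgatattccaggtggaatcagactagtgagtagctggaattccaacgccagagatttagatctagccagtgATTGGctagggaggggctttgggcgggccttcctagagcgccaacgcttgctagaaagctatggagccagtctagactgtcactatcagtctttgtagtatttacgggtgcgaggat
Nts: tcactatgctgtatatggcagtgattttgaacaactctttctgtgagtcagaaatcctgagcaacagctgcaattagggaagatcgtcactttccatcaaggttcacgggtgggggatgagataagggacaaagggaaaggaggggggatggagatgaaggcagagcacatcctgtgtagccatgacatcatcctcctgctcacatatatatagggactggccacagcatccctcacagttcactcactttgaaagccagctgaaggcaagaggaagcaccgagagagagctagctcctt
Inhbb: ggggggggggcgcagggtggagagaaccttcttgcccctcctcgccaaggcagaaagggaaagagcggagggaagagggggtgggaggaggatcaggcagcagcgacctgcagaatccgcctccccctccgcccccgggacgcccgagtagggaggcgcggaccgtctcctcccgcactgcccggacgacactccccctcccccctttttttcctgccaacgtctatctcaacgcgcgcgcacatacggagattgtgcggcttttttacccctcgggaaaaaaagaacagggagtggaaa
Areg held TGACGTCA with its first letter at -61 and TATAAA at -31 from the start. Pgr held TATAAA, read on the opposite strand, at -212 and CCAAT, likewise on the opposite strand, at -67. The windows of Ptgs2, Nts and Inhbb held none of these letters. Over all 32851 promoters of the same length in the table, 13.6% held TATAAA, 1.79% TGACGTCA and 37.4% CCAAT. These include promoters of genes under 1 FPKM, so they are not a like background for a list of expressed genes. Of the 23 genes of the ovulatory programme, 21 had a promoter in the table, with 26 windows in all. Of these windows, 5 (19.2%) held TATAAA, 1 (3.85%) TGACGTCA and 12 (46.2%) CCAAT. The 1 window with TGACGTCA was that of Areg, shown above. A match describes letters and not a bound site. For all protein-coding genes of at least 1 FPKM, and for the 500 of highest and the 500 of lowest CV, under 80% had a promoter in the table, so no share is given for them.

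Matrix genes of the cumulus were divided. Of 14 genes, 9 reached 1 FPKM. Tnfaip6, which links hyaluronan to the heavy chains of inter-α-inhibitor, stood at 331, 104, 223 and 373 FPKM, and Vcan, the proteoglycan versican, at 179.8, 175, 231 and 319.7 FPKM. Ptx3, the pentraxin that holds this matrix together, stood at 50.2, 11.1, 28.97 and 41.9 FPKM. Tnfaip6 and Ptx3 were lowest in WT2. Has2, the hyaluronan synthase, stood at 9.75, 5.94, 8.83 and 13.2 FPKM and is named outside the rule for named genes, after its values were seen. Nppc, whose product CNP keeps the oocyte in meiotic arrest until the LH surge, ran the other way, at 8.16, 22.2, 13.7 and 10.01 FPKM, highest in WT2. Its receptor Npr2 averaged 82.2 ± 8.66 FPKM. Of the 5 members under 1 FPKM, Hapln1, Itih4, Ambp and Itih3 averaged 0.0676 to 0.125 FPKM and Itih1 was listed at 0 in all 4 libraries, while Itih5, a relative of these heavy-chain genes, averaged 27.2 ± 4.40 FPKM.

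Of the proteases of ovulation and their inhibitors, 19 of 23 reached 1 FPKM. Beside Ctsl and Serpine2, the highest were Cst3 (cystatin C, an inhibitor of cathepsins) at 199, 173, 152 and 151 FPKM and Plau (urokinase) at 186, 102, 114 and 144 FPKM. Adamts1, a protease that cleaves versican and is induced through the progesterone receptor, was steady at 55.7, 59.9, 57.5 and 61.2 FPKM. This steadiness stood beside the wide spread of Pgr itself. Ctsb, the protease cathepsin B, averaged 52.3 ± 5.24 FPKM. Among the members under 1 FPKM were Mmp19, Adamts15 and Mmp9, with 0.0907 to 0.673 FPKM.

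The immediate early genes were high in all 4 libraries. The 30 listed genes all reached 1 FPKM, with a median of 37.8 FPKM. Fos stood at 555, 394, 349.7 and 295 FPKM, Egr1 at 426, 317, 302 and 337 FPKM and Jun at 326, 259, 242 and 254 FPKM. Fosb stood at 319.7, 223, 180.3 and 165 FPKM and Junb at 284, 211, 216 and 219.7 FPKM. All 5 encode transcription factors that are induced within minutes by growth factors and by stress, tissue dissociation included, and all 5 were highest in WT1. Nr4a1, an orphan nuclear receptor of the same class, was level at 274, 292, 271 and 287 FPKM. WT1 was the highest library for 22 of the 30 genes, against 29.5% of all 13722 genes.

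Luteal genes reached 1 FPKM in 25 of 26 cases. Hsd3b1, Star, Scarb1, Rgs2 and Cyp11a1, given above, led the list, followed by Sfrp4, a secreted Wnt antagonist, at 246, 163, 214 and 296 FPKM. Akr1c18, which ends progesterone action in the regressing corpus luteum and is named after its values were seen, stood at only 2.67, 1.28, 2.53 and 2.71 FPKM.

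RNA of cell cycle genes was measured throughout. All 45 genes of cell cycle and DNA replication reached 1 FPKM, with a median of 23.2 FPKM, and 34 reached 10 FPKM. Their median CV was 8.33%, against 12.4% over all 13722 genes but 9.06% over genes of 10 to 100 FPKM, a class closer in level. Pcna, the sliding clamp of DNA polymerase, stood at 133, 106, 109.8 and 119 FPKM, and Cdk4, the G1 kinase, at 104, 103, 96.4 and 92.7 FPKM. Ube2c, which helps to degrade mitotic cyclins, stood at 64.5, 58.1, 60.9 and 60.3 FPKM, and Top2a, the topoisomerase of dividing cells, at 50.4, 65.04, 57.6 and 56.6 FPKM. Ccnb1, a mitotic cyclin, and Mcm7, of the replicative helicase, averaged 42.7 ± 2.14 FPKM and 40.5 ± 2.57 FPKM. None of these 6 genes differed by more than 1.5 times between any libraries. The promoters of the 3 highest members are shown, in the same form as above, at chr2:132253131-132253430, minus strand for Pcna, chr10:127063285-127063584, plus strand for Cdk4 and chr2:164769679-164769978, plus strand for Ube2c.
Pcna: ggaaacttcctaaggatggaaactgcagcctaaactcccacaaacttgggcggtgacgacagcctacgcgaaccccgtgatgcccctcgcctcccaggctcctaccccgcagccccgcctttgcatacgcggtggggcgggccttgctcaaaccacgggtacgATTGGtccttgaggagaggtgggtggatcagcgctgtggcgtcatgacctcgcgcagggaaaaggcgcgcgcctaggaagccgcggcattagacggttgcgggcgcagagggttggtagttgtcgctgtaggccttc
Cdk4: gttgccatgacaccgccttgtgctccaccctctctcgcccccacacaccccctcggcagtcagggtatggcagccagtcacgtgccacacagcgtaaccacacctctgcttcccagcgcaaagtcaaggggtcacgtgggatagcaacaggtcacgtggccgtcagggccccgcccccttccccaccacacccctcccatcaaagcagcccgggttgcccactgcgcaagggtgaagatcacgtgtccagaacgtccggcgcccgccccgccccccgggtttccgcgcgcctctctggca
Ube2c: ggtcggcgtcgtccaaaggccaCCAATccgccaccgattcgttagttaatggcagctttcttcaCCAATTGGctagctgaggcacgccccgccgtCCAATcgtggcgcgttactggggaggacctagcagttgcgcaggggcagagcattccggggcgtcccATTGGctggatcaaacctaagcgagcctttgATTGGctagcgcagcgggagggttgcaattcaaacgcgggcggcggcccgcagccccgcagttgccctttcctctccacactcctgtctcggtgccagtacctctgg
Pcna held 1 match to CCAAT, on the opposite strand at -87, and Ube2c held 6, of which a pair overlaps as CCAATTGG. The Cdk4 window held none. Of 37 genes of the list with a promoter in the table, 28 of 39 windows (71.8%) held CCAAT, against 37.4% of all promoters, those of genes under 1 FPKM included.

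Genes of apoptosis reached 1 FPKM in 22 of 25 cases and none reached 100 FPKM. Trp53 averaged 42.8 ± 1.83 FPKM, the anti-apoptotic Mcl1 42.2 ± 3.75 FPKM and Bax, its pro-apoptotic relative, 31.2 ± 4.36 FPKM. Fas, Pmaip1 and Fasl lay under 1 FPKM, and the death ligand Fasl was listed at 0 in 3 of the 4 libraries.

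The levels of reference genes depended strongly on the gene. Of the 20 usual reference genes, all reached 1 FPKM, with a median CV of 8.50%. Rpl13a, of the ribosome, stood at 799, 731, 819 and 778 FPKM and Actb, β-actin, at 483, 414, 403 and 409 FPKM. Ubb, which encodes ubiquitin, stood at 706, 547, 556 and 589 FPKM and, like Actb, was highest in WT1. Gapdh, which has many processed pseudogenes in the mouse and is named outside the rule for named genes, was listed at only 25.97, 35.3, 26.3 and 28.1 FPKM, so its level is uncertain. Chaperones were led, after Hsp90ab1, by Hspa8 at 785, 659, 739.6 and 792 FPKM, and in the endoplasmic reticulum by Hsp90b1, Hspa5 and Calr, with 658, 654 and 624 FPKM. All 3 reticulum chaperones were highest in WT2. Of 30 antioxidant genes, 29 reached 1 FPKM, led by Sod1 (cytosolic superoxide dismutase) at 365, 302, 323 and 368 FPKM and Mgst1 (microsomal glutathione transferase) at 252, 169.7, 211 and 259.6 FPKM. Nqo1 was the member under 1 FPKM, at 0.504 FPKM.

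RNA of PRC2, whose catalytic subunit is the target of the study, was present in these cells. Of its 12 genes, 11 reached 1 FPKM, all but Epop at 0.715 FPKM. Ezh2 stood at 20.5, 23.4, 25.2 and 25.3 FPKM, in cells with 1 floxed allele. Rbbp7, a histone-binding subunit, stood at 202, 165, 184 and 182 FPKM, while Suz12, a core subunit, stood at 19.4, 20.2, 20.3 and 20.01 FPKM with a CV of 2.02%. FPKM measures RNA and says nothing of the protein. Of the long noncoding RNAs, Gas5 averaged 166 ± 15.4 FPKM and Malat1 149.6 ± 10.1 FPKM. Rian and Meg3, of the imprinted Dlk1-Dio3 cluster, averaged 112 ± 10.3 FPKM and 92.3 ± 16.6 FPKM. 

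By class of gene, 11638 of the 13722 were protein-coding, 735 pseudogenes, 427 long noncoding and 254 small noncoding RNAs, and 643 had no match in the annotation. On the X chromosome 415 of 941 protein-coding genes of the table reached 1 FPKM, with a median of 8.52 FPKM, against 11207 of 20337 on the autosomes, with a median of 8.96 FPKM. Of 183 such genes that the annotation places on the Y chromosome 3 reached 1 FPKM, of which Erdr1, a gene of the pseudoautosomal region that X and Y share, stood at 93.05, 101, 90.9 and 93.5 FPKM. The others, predicted gene models that start at chrY:90754513 and chrY:90838869, on either side of Erdr1, averaged 7.16 and 6.70 FPKM. Gene models with no Ensembl identifier held 1.32 ± 0.309% of the summed FPKM. The highest of these models averaged 703 FPKM, at rank 41, and stood at 725, 344, 663 and 1079 FPKM, lowest in WT2 and highest in WT4. Erdr1, the models on either side of it and this model were picked out after their values were seen.

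RNA of other cell types was measured beside that of granulosa cells. In bulk samples, fewer cells of a type and less RNA per cell cannot be told apart. Of oocyte genes, 32 of 33 were at or above 1 FPKM, with a median of 24 FPKM and summed levels of 1626, 970.3, 1405 and 1281 FPKM. Gdf9, the growth factor by which the oocyte directs its granulosa cells, stood at 199, 115, 171 and 159.9 FPKM, and Padi6, of the oocyte's cytoplasmic lattices, at 158, 92.2, 133 and 121 FPKM. Zp3 and Zp2, of the zona pellucida, stood at 122, 65.7, 95.9 and 85.8 FPKM and 104, 61.2, 91.96 and 81.4 FPKM. Sohlh1, a factor of primordial follicles, was the member under 1 FPKM, at 0.124 FPKM. The libraries kept nearly the same ends in this list, since 29 of the 32 genes were highest in WT1 and 31 were lowest in WT2, against 29.5% and 25% of all 13722 genes.

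Red blood cell genes had the same ends and higher sums, of 2675, 1051, 1439.9 and 1348 FPKM. Hba-a2 and Hba-a1, α globins, stood at 952, 360.1, 476 and 446 FPKM and 821, 318, 439 and 422 FPKM, and the β globins Hbb-bs and Hbb-bt at 594, 244, 343 and 314 FPKM and 299.9, 125, 176 and 160.0 FPKM. All 4 globins, and Alas2 of haem synthesis (7.87, 4.85, 5.44 and 5.90 FPKM), were highest in WT1 and lowest in WT2. The other 6 erythroid genes of the table lay under 1 FPKM. The globins have near-identical copies, so the share of each is uncertain.

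Stromal and mural genes ran in another order. Of stroma and fibroblast genes, 18 of 20 reached 1 FPKM, with sums of 329.6, 461, 336 and 224 FPKM. Sparc, a collagen-binding matrix protein, stood at 117, 148, 112 and 75.2 FPKM and Col1a2, of type I collagen, at 17.95, 34.7, 22.8 and 13.4 FPKM. Col3a1, of type III collagen, stood at 14.9, 29.1, 19.1 and 10.4 FPKM and Dcn (decorin) at 10.01, 15.9, 10.5 and 5.64 FPKM. Postn and Dpt lay under 1 FPKM. Over all 13722 genes, WT2 was highest for 35.0% and WT4 lowest for 32.4%. Of the 18 stromal genes WT2 was highest for 17 and WT4 lowest for 17. Of smooth muscle genes, 8 of 13 reached 1 FPKM, and all 8 were highest in WT2 and lowest in WT4. Acta2, smooth muscle actin, stood at 52.1, 58.7, 44.7 and 33.2 FPKM and its motor partner Myh11 at 3.30, 4.09, 3.86 and 3.0 FPKM. The theca and interstitial list, with 15 of 17 at or above 1 FPKM, was highest in WT2 for 12 genes, with sums of 240.2, 443, 339 and 278 FPKM. Its members under 1 FPKM were Nr2f1 and Cyp11b1. It shares Lhcgr, Acta2, Ptch1, Nr2f2 and others with lists of granulosa, stroma or muscle. Endothelial genes were low. Of 20, 9 reached 1 FPKM, among them the junction proteins Pecam1 at 2.45, 2.56, 2.33 and 1.88 FPKM and Cdh5 at 1.28, 3.33, 2.11 and 1.39 FPKM, and 8 of the 9 were highest in WT2. Of the surface epithelium and oviduct list, 14 of 18 reached 1 FPKM. It was led by the gene Wt1, a transcription factor that granulosa cells also express, at 16.2, 15.01, 13.6 and 11.4 FPKM, followed by the keratin Krt8 at 13.1, 8.75, 11.1 and 9.94 FPKM and Upk3b, of the mesothelium, at 5.54, 10.4, 6.86 and 4.52 FPKM. Krt7, Lgr5, Cldn7 and Pax8 lay under 1 FPKM.

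Genes of immune cells were low. Of 20 macrophage and myeloid genes, 8 reached 1 FPKM, and of 20 lymphocyte and granulocyte genes, 2 (Ms4a1 and Il2rb). Lyz2, the lysozyme of macrophages, stood at 19.3, 9.80, 8.53 and 9.20 FPKM and C1qa, a complement subunit, at 2.78, 1.90, 1.56 and 2.11 FPKM. The macrophage markers Csf1r and Adgre1 averaged 0.764 and 0.346 FPKM. The T cell gene Cd3e was listed at 0 in 3 libraries and the B cell gene Cd79a averaged 0.309 FPKM.

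The spread between the 4 libraries was smallest in the class from 1000 FPKM, which was mostly mitochondrial, and largest in that of 1 to 10 FPKM. The median CV was 12.4%, with a 10th percentile of 5.06% and a 90th of 32.2%. It was 15.9% for genes of 1 to 10 FPKM, 9.06% for 10 to 100 FPKM, 9.98% for 100 to 1000 FPKM and 4.40% from 1000 FPKM. Most of the 23 genes of this last class were mitochondrial genes or the chromosome 1 pseudogenes that resemble them. The others, Inha, Eef1a1, Tpt1, Ctsl and Gja1, had CVs of 12.1%, 7.31%, 10.5%, 4.28% and 16.9%, so the low median does not describe abundant nuclear genes. A CV of at least 50% was measured for 417 genes, of which 45 averaged at least 10 FPKM. Protein-coding genes had a median CV of 11.3%, long noncoding RNAs 23.2%, pseudogenes 24.8%, models without a match in the annotation 27.8% and small noncoding RNAs 34.6%. These classes also differed in level, with medians of 8.96, 2.02, 5.05, 1.89 and 2.36 FPKM. Across the 11638 protein-coding genes, CV and level had a Spearman correlation of -0.42, a description across genes that share the same 4 libraries.

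**Figure D3:**
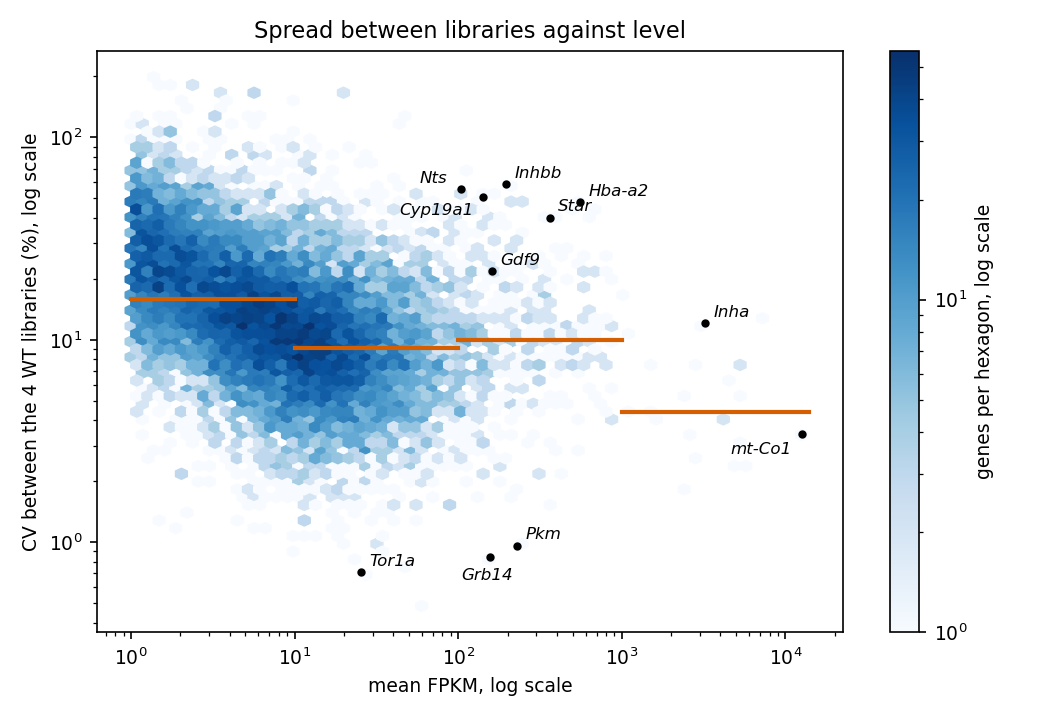
CV between the 4 WT libraries (y axis, log scale) against mean FPKM (x axis, log scale) for the 13722 genes, as hexagons shaded by the number of genes. Orange lines mark the median CV of each level class, from 15.9% to 4.40%, and Inhbb, Nts and Cyp19a1 lie far above them while Tor1a, Grb14 and Pkm lie far below.

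Predicted gene models and pseudogenes made up most of the 45 genes of at least 10 FPKM with a CV of at least 50%. With those left out, as for all named genes, the 12 of highest spread from 10 FPKM upward included genes of ovarian function. Inhbb, Cyp17a1, Cyp19a1, Sult1e1 and Ptx3, described above, were among them. Nts, which encodes the peptide neurotensin, stood at 144, 26.4, 93.1 and 152 FPKM, a CV of 55.7%, and Nmu, the peptide neuromedin U, at 18.1, 3.66, 10.8 and 16.8 FPKM. Snap25, of vesicle fusion and a member of the ovulatory list, stood at 10.6, 5.91, 14.1 and 25.3 FPKM. Nts and Nmu were far lower in WT2 than elsewhere, and Snap25 highest in WT4. Mid1, a ubiquitin ligase that spans the pseudoautosomal boundary, stood at 22.9, 12.5, 30.4 and 49.6 FPKM, and Rnasek at 20.9, 5.54, 8.95 and 26.6 FPKM. Hnrnpa3, an RNA-binding protein, was low in WT1 alone, at 5.17, 32.4, 32.1 and 28.3 FPKM. The highest CV of these 12, 88.3%, belonged to Rn7sk, the 7SK RNA that restrains transcription elongation, at 23.4, 46.2, 8.51 and 5.79 FPKM. Rpph1 and Rmrp, the RNA subunits of RNase P and RNase MRP, were also highest in WT2, at 1.25, 20.9, 1.35 and 0.0888 FPKM and 0.488, 4.54, 1.34 and 0.234 FPKM, and are named after their values were seen. These 3 RNAs are not polyadenylated, and the libraries were made from poly(A) RNA. What part carry-over of other RNA had in their spread was not tested.

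The 12 steadiest genes from 10 FPKM upward, with the same genes left out, had CVs of 0.709% to 1.11%. Tor1a, a chaperone-like ATPase, stood at 25.4, 25.2, 25.4 and 25 FPKM, and Psmd6, of the proteasome, at 43.8, 44.4, 43.7 and 44.2 FPKM. Wtap, of the RNA methylation complex, stood at 22.1, 22.2, 21.8 and 22.0 FPKM. Pkm, the pyruvate kinase of glycolysis, held 231, 230.4, 226 and 230.3 FPKM, and Grb14, an adaptor of the insulin receptor, 158, 155, 155 and 157 FPKM. The others were Atxn10, Wdr33, Clic4, Hnrnpll, Cand1, Ints9 and Sae1. These 12 genes covered means of 10.04 to 229.5 FPKM, and none is on the list of usual reference genes, whose lowest CV was 2.62%. The 12 were picked for their low CV from a far larger set than the 20 reference genes. A lower extreme follows from that choice, at least in part.

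The 4 libraries ranked genes alike. Over the 13722 genes the Spearman correlation, a description across genes and not over samples, lay between 0.964 for WT1 with WT2 and 0.980 for WT3 with WT4. Between WT3 and WT4, 149 genes differed by at least 1 on the log2(FPKM + 1) scale, and between WT2 and WT4, 331 genes did (1.09% and 2.41%). The added 1 shrinks differences at low levels, so these counts miss genes near 1 FPKM that differed by 2-fold in FPKM itself. Of the 100 highest genes of each library, 86 were shared by all 4. For 765 genes (5.57%) 1 library stood apart from the other 3 by Dixon's ratio of the gap to the range above its 95% critical value. WT1 was that library for 360 genes, WT2 for 207, WT4 for 131 and WT3 for 67. A ratio this large arises for about 1 in 20 groups of 4 by chance.

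**Figure D4:**
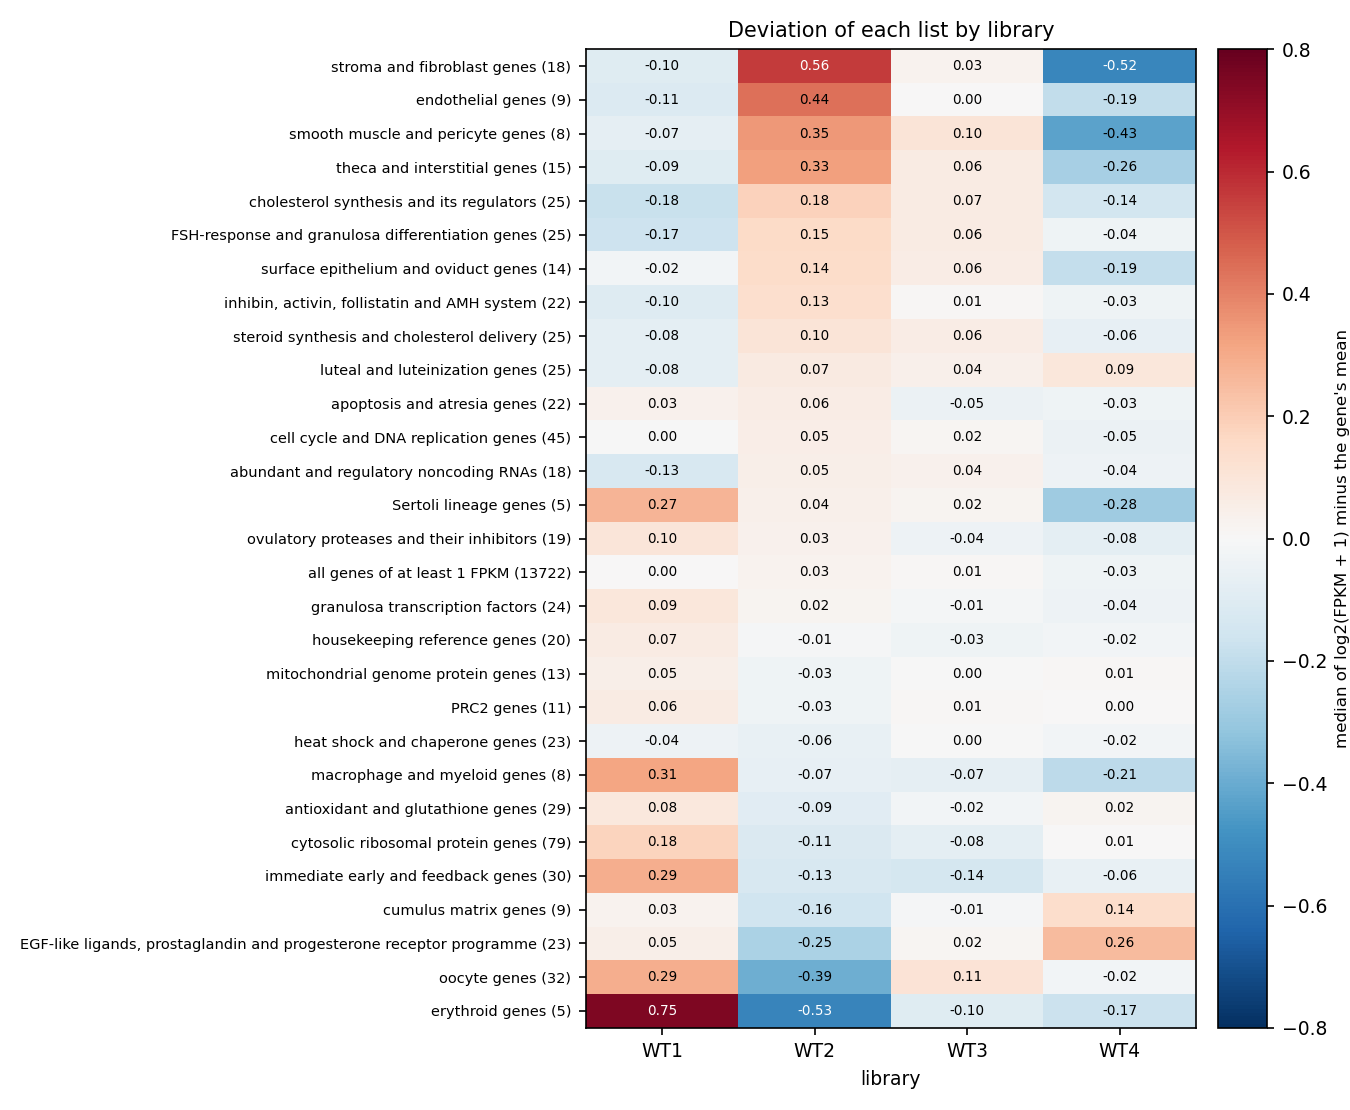
Median over the members of each list (rows, with the number at or above 1 FPKM in brackets) of log2(FPKM + 1) minus the gene's mean over the 4 libraries, for each WT library (columns). Red is above and blue below the mean. Stromal genes stand at 0.56 in WT2 and -0.52 in WT4, and oocyte genes at 0.29 in WT1 and -0.39 in WT2.

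For each library, the 6 genes farthest above and the 4 farthest below the other 3 on the log2(FPKM + 1) scale were taken. By this choice every library has such genes, whatever the size of the gaps. In WT1 the globins Hba-a2 and Hba-a1, the small heat shock gene Hspb1 (20.05, 9.63, 8.35 and 8.49 FPKM), the ribosomal gene Rpl22 (248, 106, 127 and 116 FPKM), the stress factor Atf3 (20.3, 9.86, 9.05 and 9.99 FPKM) and Lyz2 stood highest. Below the others in WT1 were Hnrnpa3, the muscle thin-filament gene Neb (6.58, 20.6, 22.5 and 25.4 FPKM), the ceramidase gene Asah2 (7.72, 17.4, 17.01 and 16.4 FPKM) and Pappa (8.75, 18.1, 17.9 and 20.2 FPKM), the last a protease that frees IGF from its binding proteins. Levels in WT1 also ran with transcript length. For the 2329 protein-coding nuclear genes with transcripts of up to 1962 bp the median deviation of WT1 on that scale was 0.10, and for the 2325 of at least 5290 bp it was -0.10. Across 11625 genes the Spearman correlation of deviation and transcript length was -0.39 in WT1, against 0.13, 0.22 and 0.13 in WT2, WT3 and WT4. What part transcript length had in the levels of WT1, ribosomal and immediate early genes included, was not tested.

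In WT2, Rn7sk, Lgals3bp (9.60, 24.5, 13.96 and 9.33 FPKM), Inhbb, Col6a2 (12.1, 22.5, 13.9 and 8.73 FPKM), Nppc and Cyp17a1 stood highest above the others, and Nts, Sult1e1, Nmu and Ptgs2 farthest below. In WT4, Snap25, Epgn (15.3, 7.78, 15.1 and 26.5 FPKM), Pgr, Zbed5 (11.1, 10.9, 12.1 and 20.2 FPKM), Mid1 and Btc stood highest. Epgn, like Btc, encodes an EGF-like ligand. Dcn, Col4a1 (27.3, 39.4, 27.5 and 16.9 FPKM) and Sparcl1 (9.70, 17.4, 11.4 and 5.97 FPKM), of the extracellular matrix, and PCDHGB6, a protocadherin of cell adhesion (19.6, 26.1, 23.1 and 12.4 FPKM), stood farthest below the others in WT4. WT3 had the smallest gaps, of which the largest upward was that of the glycine transporter Slc6a9 at 13.2, 13.3, 17.3 and 10.6 FPKM and the largest downward that of Josd2 at 19.9, 17.8, 12.6 and 18.2 FPKM.

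Orders of libraries were not equally common. Of 625 genes with at least 10 FPKM and a CV of at least 20%, 87 (13.9%) ran WT4, WT1, WT3, WT2 from high to low, the most common of the 24 possible orders in this set, among them Nts, Sult1e1, Ptgs2, Pgr, Btc and Tnfaip6. The next most common, with 75 genes (12%), ran WT2, WT3, WT4, WT1, among them Inhbb, Cyp19a1, Lhcgr and Nppc. Over all 5751 genes of at least 10 FPKM the first order held 5.44% and the second, the most common there, 10.5%. Other genes that LH is known to induce ran differently. Star, Snap25 and Vcan ran WT4, WT3, WT1, WT2, and Ptx3 ran WT1, WT4, WT3, WT2. Cyp17a1, Col1a2 and Dcn had WT2 highest and WT4 lowest. The oocyte list (deviation -0.39), the globins (list deviation -0.53) and the stromal list (deviation 0.56) shifted in WT2 together with the ovulatory list (deviation -0.25), the stromal list upward and the others downward, and their part in it was not tested.

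**Figure D5:**
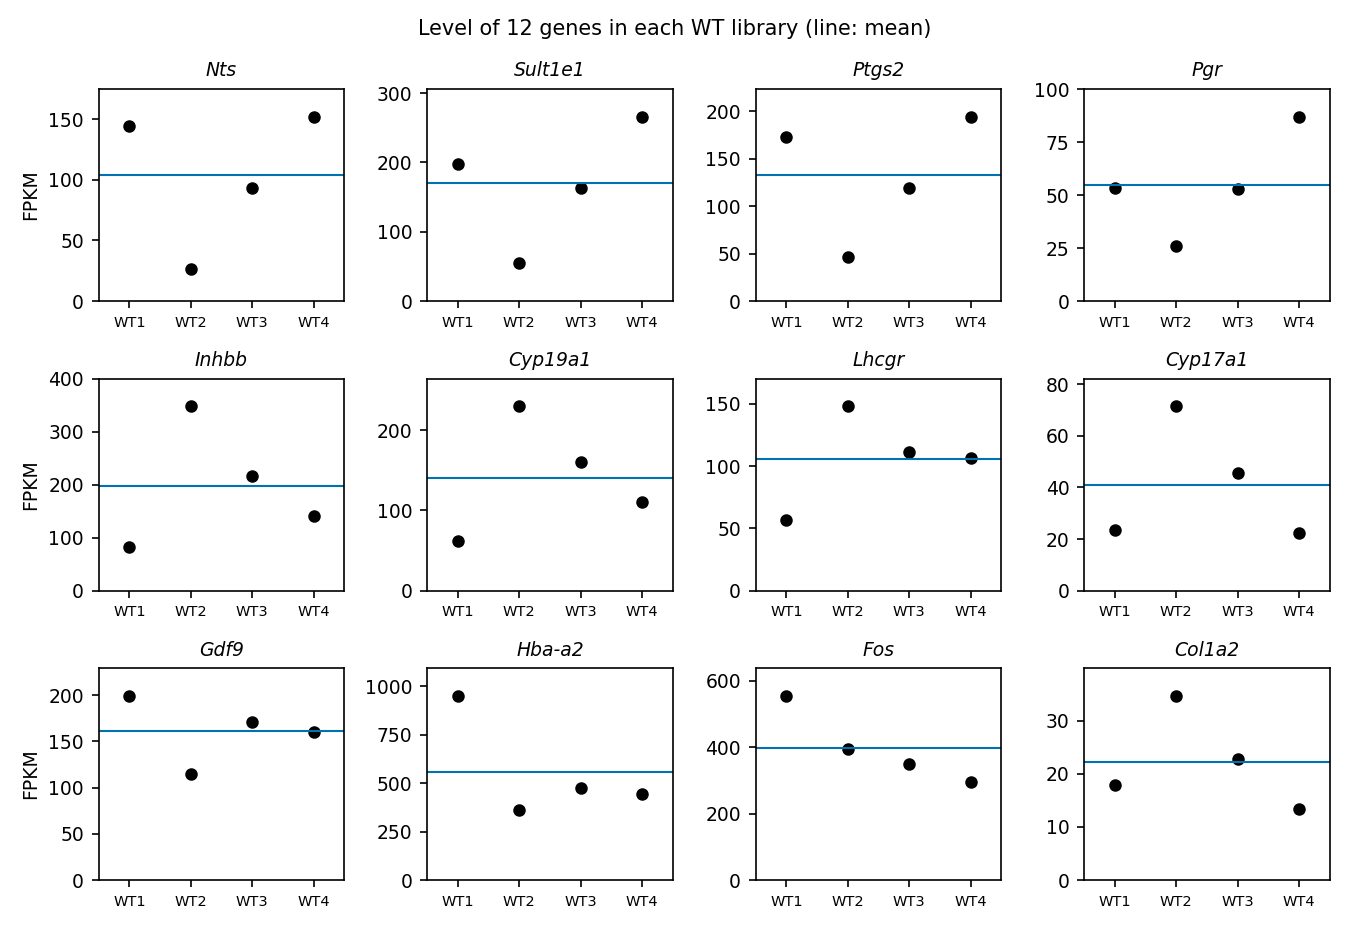
FPKM (y axis, from 0) of 12 genes in each WT library (x axis), with points for the libraries and a line at the mean. The top row (Nts, Sult1e1, Ptgs2, Pgr) is lowest in WT2, the middle row (Inhbb, Cyp19a1, Lhcgr, Cyp17a1) highest in WT2, and the bottom row shows an oocyte gene, a globin, an immediate early gene and a stromal gene.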

How the data were processed

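Polyadenylated RNA of granulosa cells was sequenced as paired-end reads. The deposited table gives FPKM values per gene as made by the authors before deposit. Neither labels nor table name the unit, which was inferred from the values. The submitters' processing notes name the genome build mm10, HTSeq 0.12.4, HISAT2, DESeq2, edgeR, Trimmomatic and FastQC, without role or order. Whether counting used strand, and how fragments shared by near-identical genes were treated, is not given in the sources used here. The values sum to 390185, 372085, 374417 and 380430 FPKM in WT1 to WT4. Low values were not whole multiples of a common step, so the depth is unknown and no interval is given for counting error.

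No values were rescaled. Genes averaging 1 FPKM or more in WT1 to WT4 were described by mean, SD, CV and rank, and libraries by Spearman correlation across genes. No test was made, since the libraries form 1 group. A pseudocount of 1 was used on log2 scales. Genes were annotated from GENCODE (GRCm38) by Ensembl identifier. Of 586 genes on 28 lists, 577 matched by symbol, 4 by identifier and 5 not. The members and the lists were chosen with earlier results of these data known. Named genes are the 6 markers, the 25 highest, up to 6 highest of each list, the 12 of highest and of lowest CV from 10 FPKM, for each library 6 above and 4 below the other 3, genes near class medians or the limit of 1 FPKM, and members under 1 FPKM that define a cell type. No pseudogene or predicted model was named by this rule. Others were named after their values were seen, and a few genes of the lists are not reported here. Alternatives covered scaling, limit, feature set, measure and leaving out each library. Scripts were checked on simulated data and used Python 3.11.15, pandas 2.3.3, numpy 2.4.6, scipy 1.17.1 and matplotlib 3.10.9.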

Additional observations from a re-analysis of the deposited data

Results flagged for a closer look

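Among 238 named genes, 21 had 1 library apart from the other 3, by a gap to the nearest of them, relative to the whole range, above the 95% critical value of Dixon's ratio. Of 30 summed lists 3 did, and of 16 other per-library quantities 0. Chance flags about 1 in 20 groups of 4, and 5.57% of all 13722 genes had a library apart. Hspb1, Rpl22, Atf3, Lyz2, Asah2, Zbed5 and Hnrnpa3 were named because a library lay far from the others or their CV was high, so the count over named genes is not set against that share.

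WT1 was that library for most of them. It was high for Rplp1 (1154.5 FPKM), mt-Nd3 (929 FPKM), Hspb1 (20.05 FPKM), Rpl22 (248 FPKM), Atf3 (20.3 FPKM), Lyz2 (19.3 FPKM), Mcl1 (47.8 FPKM) and Sox18 (7.14 FPKM). It was also high for Actb (483 FPKM), Junb (284 FPKM), Amh (313 FPKM) and Il2rb (1.28 FPKM). WT1 was low for Hnrnpa3 (5.17 FPKM), Asah2 (7.72 FPKM), Prkar2b (254 FPKM) and Malat1 (134 FPKM). It was low as well for Sc5d (45.6 FPKM), of cholesterol synthesis, and for the receptor genes Tgfbr1 (52.1 FPKM) and Bmpr2 (42.8 FPKM). Summed over their lists, granulosa transcription factors reached 1344.9 FPKM in WT1, and immediate early genes 3493 FPKM, with Fos on both lists. The deviations of WT1 ran with transcript length (Spearman correlation -0.39 across 11625 genes), and the part of length in these values was not tested.

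WT4 stood apart for Zbed5 (20.2 FPKM) and WT3 for Ccnb1 (45.8 FPKM), both on the high side. The 8 Y-linked genes summed to 0.216 FPKM in WT2, above the other 3 libraries and far below 1 FPKM.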

How the results depend on the processing

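Over 25 results and 238 alternative values, 224 stayed within the spread between libraries, or within 1.5 times for a count, and 14 moved. Some of the 224 could not change, such as the means of the 6 markers where only the limit or the set of genes differed. Leaving out 1 of 4 libraries cannot shift a mean over libraries by its whole SD. The marker means and the share of the 10 highest genes thus could not count as moved there. A count of genes highest or lowest in a kept library can hardly fall in those sets either. With a limit of 5 FPKM in place of 1, 8625 genes remained, the median CV was 9.91%, the median Spearman correlation over library pairs 0.959, and 484 genes had a library apart. The theca, smooth muscle and endothelial genes highest in WT2 were then 6, 3 and 1. With no limit, 30679 genes were counted, the median CV was 34.9%, the correlation 0.921, 6130 genes had a library apart, and 17 endothelial genes were highest in WT2. Fewer or more genes entered by construction. Without the mitochondrial genome the 10 highest genes held 9.89% of the summed FPKM. Leaving out each library in turn gave a correlation of 0.965 to 0.976 and a median CV of 10.7% to 13.4%. The count of genes with a library apart needs 4 libraries and was not run on 3. Star averaged 299 to 417 FPKM in these sets. Scaling to equal sums or by median-of-ratios size factors (0.975 to 1.02) moved the median of all genes by at most 0.04 on the log2 scale and changed no count by 1.5 times. No paired analysis was possible because the 4 libraries form 1 group and no comparison was tested. Depth is unknown, so the counting error of low genes is too.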
